A study of Mus musculus with 10 samples.

Results

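The mouse embryonic stem cell (mESC) clones E2E8 and E2G7 both carry a knockout (KO) of Elmsan1, and they were compared with each other through the 2 RNA-seq libraries of each clone, 4 of the 10 libraries of the series. They were chosen by their clone names, without regard to any measured value. The other libraries, 2 of each line, come from WT cells and from the Dnttip1 KO clones D2A7 and D1E6. WT libraries serve here to place each clone, and the Dnttip1 clones serve as another pair of clones of 1 genotype.

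All lines descend from Bruce-4 cells, a male C57/BL6 mESC line, and were grown with LIF and inhibitors of MEK and GSK3β (2iL medium), which hold mESCs in the naive state. E2E8 and E2G7 were edited with Cas9 and 1 guide RNA, and each was grown from a single sorted cell. Each clone is thus 1 line, so its edited alleles, its founder cell and its history in culture cannot be told apart. Nothing in the labels says whether the libraries of a clone came from separate cultures, although the study describes them as biological replicates. The p-values measure the spread between these libraries, which may be technical.

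Elmsan1, also called Mideas, encodes a scaffold of MiDAC, the mitotic deacetylase complex. In this complex ELMSAN1 and DNTTIP1 hold HDAC1 or HDAC2, enzymes that remove acetyl groups from histones. In mESCs, cells that can form every tissue of the embryo, the transcription factors OCT4, SOX2 and NANOG keep the undifferentiated state. The MEK inhibitor blocks ERK signalling, which otherwise moves cells towards differentiation. DNA methylation is low in 2iL medium, and the methyltransferases DNMT3A and DNMT3B, with their cofactor DNMT3L, add new methyl groups.

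Elmsan1 (ENSMUSG00000042507, listed in the annotation as C130039O16Rik) lies on the minus strand of chromosome 12. The guide is shown because both clones were made with it. Capitals mark its 10 bases next to the PAM, the short motif that Cas9 needs beside its target. The genomic site is printed with the same bases in capitals and with the PAM, agg, at its 3′ end.
Elmsan1 guide: gcucucuuggCGGCUAAGGC
Genomic site: gctctcttggCGGCTAAGGCagg
The guide has 1 exact match in the NCBIM37 genome, on the plus strand at chr12:85512612-85512631. The match lies in coding exon 3 of the Elmsan1 transcripts C130039O16Rik-001 and C130039O16Rik-201 of GENCODE vM1. The alleles that each clone carries there were not analysed here. The study gives the targeted exon another number, and it reports indels in both clones that bring in a premature stop codon.

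The clones had nearly the same level of Elmsan1 RNA. It was measured at 4.92 and 5.18 FPKM (fragments per kilobase of exon, scaled to the number of mapped fragments) in E2E8, at 4.62 and 4.75 FPKM in E2G7 and at 5.53 and 5.39 FPKM in WT. The RNA was thus present in both clones, and without the edited sequence its level does not check the labels. The study reports that ELMSAN1 protein was lost in both clones while Elmsan1 mRNA did not differ significantly from WT. The difference between the clones was 0.09 on the log2(FPKM + 0.1) scale (standard error 0.05, limma adjusted p = 0.171), and under quantile normalization it was -0.02. Dnttip1 was measured at 6.47 and 6.79 FPKM in E2E8 against 7.63 and 7.77 FPKM in E2G7, a log2 difference of -0.22. Hdac2 (41.9 and 40.9 against 48.5 and 47 FPKM) differed by -0.22 and Hdac1 (46.7 and 42.4 against 49.7 and 49.4 FPKM) by -0.17. None of the 5 tested genes of the complex was called by the rule given next. Trerf1, for a further partner of the complex, had the largest difference among them, 0.48.

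Between the clones, 1752 of 16723 tested genes were called higher in E2E8 (10.5%) and 547 were called lower (3.27%), by the study's thresholds, a fold of 1.5 or more and a p below 0.01 before adjustment. The counts of list members given below are to be read beside these shares of all genes. Every called gene had a limma adjusted p of 0.0243 or less. Differences are E2E8 minus E2G7 throughout, on the log2(FPKM + 0.1) scale, which understates the change of low genes. The median absolute difference between the libraries of a clone was 0.0744 for E2E8 and 0.0620 for E2G7, whereas between the clones it was 0.235. Over all tested genes the median difference was 0.05. With quantile normalization the median was -0.01 and the calls split differently, 1043 higher and 832 lower, so that 55.6% of the calls were higher rather than 76.2%.

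The 4 libraries held from 67143667 to 86463782 fragments, against 31098274 and 37921194 in WT. The cells had the markers of mESCs. Pou5f1, which encodes OCT4, was at 244 and 240.4 FPKM in E2E8 and 289 and 289 FPKM in E2G7, Nanog at 245 and 243 against 270.2 and 262 FPKM, and Sox2 at 132 and 138 against 138 and 137 FPKM. Of 10 fibroblast markers, 7 stayed under 0.1 FPKM in both clones, and the list summed to 16.6 to 17.6 FPKM in E2E8 and 12.1 to 12.3 FPKM in E2G7, most of it from Fbln1. All 9 markers of two-cell-like cells found in the table stayed under 0.1 FPKM in both clones.

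The calls depended on expression level. Among genes with a mean from 0.3 to 1 FPKM, 24.0% were called higher and 6.22% lower, with a median difference of 0.27. Among genes from 10 to 30 FPKM, 3.37% were called higher and 1.63% lower, with a median of -0.04. Of the 487 tested lincRNAs, 79 were called higher and 13 lower, with a median of 0.30, while 1446 of 13509 protein-coding genes were called higher and 437 lower. Short structural RNAs took 27.5% and 27.0% of the summed FPKM in E2E8 and 16.7% and 16.8% in E2G7, with 23.3% and 22.3% in WT. Neat1, a long nuclear RNA, was at 8.36 and 10.9 FPKM in E2E8 and 3.71 and 4.5 FPKM in E2G7, a difference of 1.19. The part of these RNAs in the differences of other genes was not tested.

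**Figure D1:**
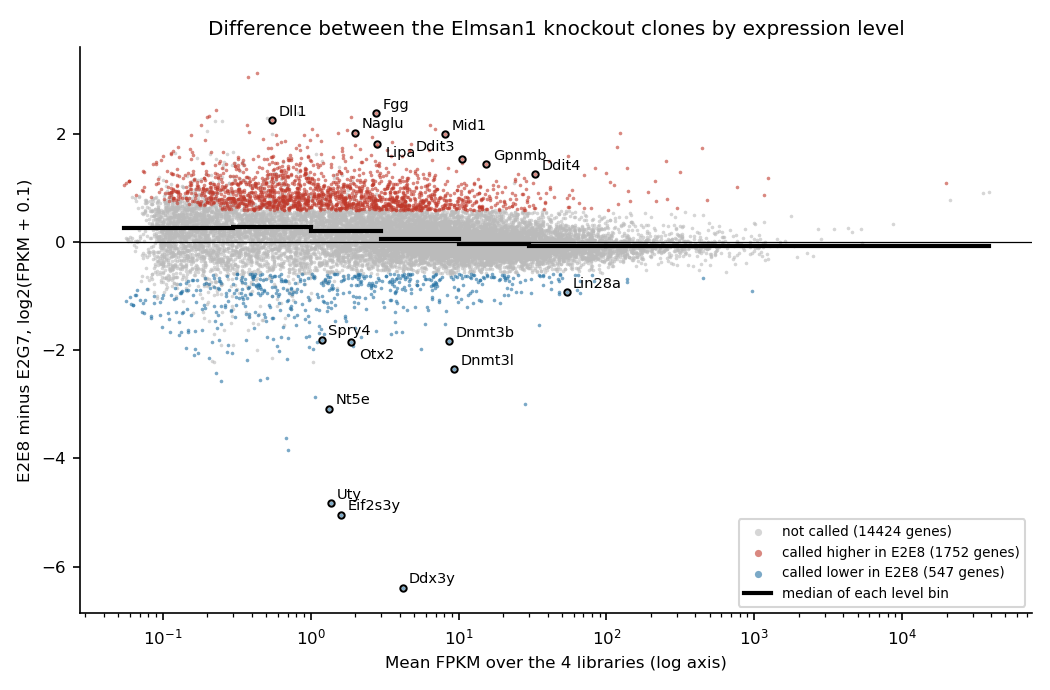
Difference between the clones (vertical axis, log2(FPKM + 0.1)) for each tested gene against its mean FPKM over the 4 libraries (horizontal log axis), with called genes in colour and bars at the median of each level bin. The medians fall from 0.25 below 0.3 FPKM to -0.08 above 30 FPKM, and the Y-linked genes Ddx3y, Eif2s3y and Uty lie lowest.

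The clones differed most in the genes of the Y chromosome. Of the 9 Y-linked genes listed, 6 passed the filter on low values, and all 6 were called lower in E2E8. Together the 9 genes had 2 and 3 fragments in the libraries of E2E8 against 6570 and 7078 in those of E2G7 and 4901 and 6177 in WT. Genes that passed the filter did so through E2G7, so that only a difference in 1 direction could be seen in them.

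Ddx3y, which encodes an RNA helicase, was at 0.00284 and 0 FPKM in E2E8, at 8.44 and 8.32 FPKM in E2G7 and at 16.5 and 18.2 FPKM in WT. E2E8 thus held 1 fragment of it in all against 6490 in E2G7, a ratio scaled to library size of 5553 (95% exact interval 996.3 to 219374, for counting error only). Eif2s3y, for a subunit of a translation initiation factor, had 1 fragment in E2E8 against 2248 in E2G7, a ratio of 1924 (interval 344.9 to 76008). Uty, for a protein of the histone demethylase family, had no fragment in E2E8 and 3514 in E2G7, at least 1002-fold higher in E2G7 with a floor of 3 fragments over the clone. Ube1y1, for a ubiquitin-activating enzyme, was at 0 and 0.0112 FPKM in E2E8 against 1.36 and 1.45 FPKM in E2G7. Kdm5d, for a histone demethylase, and Zfy1, for a zinc finger protein, had no fragment in E2E8 and were at least 43.6-fold and 65.3-fold higher in E2G7.

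E2G7 itself had lower levels of several of these genes than WT. Its mean level was 48.3% of the WT mean for Ddx3y, 52.8% for Eif2s3y and 50.2% for Uty, but 113% for Ube1y1. For Kdm5d it was 22.7% and for Zfy1 76.7%. Against WT, the log2 difference of E2G7 was -1.06 for Ddx3y, -0.92 for Eif2s3y and -0.99 for Uty, whereas for Ube1y1 it was 0.15. The X-linked partners of these genes, named after their values were seen, were not called between the clones. Ddx3x was at 139 and 136 FPKM in E2E8 and 169 and 164 FPKM in E2G7 (difference -0.29), Eif2s3x at 67.1 and 63.9 against 68.5 and 68.5 FPKM (-0.07) and Kdm6a, the partner of Uty, at 10.4 and 10.2 against 11.7 and 11.5 FPKM (-0.18). Usp9x had the largest difference of them, -0.46. Without either E2G7 library these Y-linked genes no longer passed the filter of 0.1 FPKM in 2 libraries, and none could be tested.

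**Figure D2:**
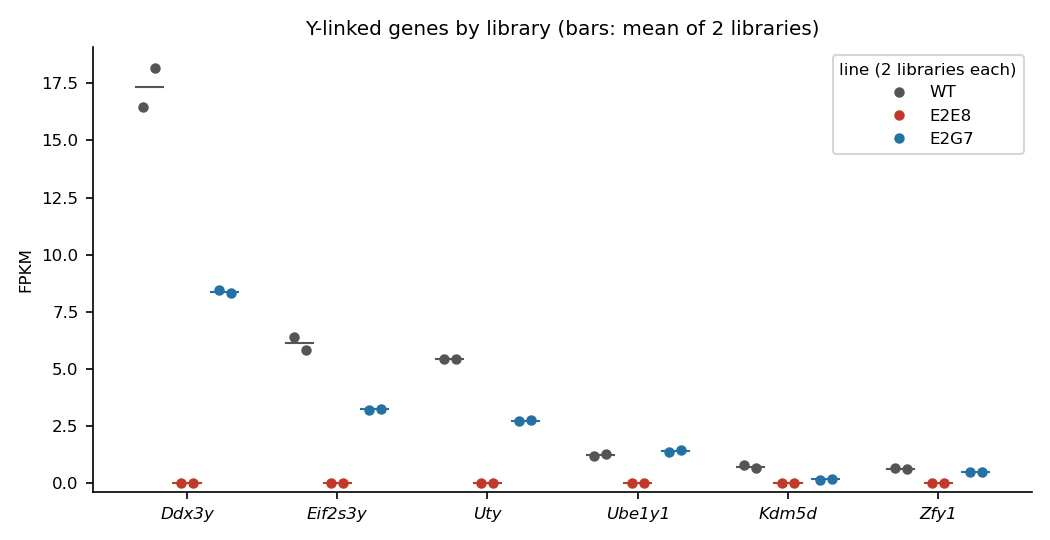
FPKM of Y-linked genes in each library of WT, E2E8 and E2G7 (points) with the mean of the 2 libraries (bars). The E2E8 points lie at or next to 0, and for Ddx3y the E2G7 points (8.44 and 8.32) lie below the WT points (16.5 and 18.2).

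Of 10 tested genes of DNA methylation, 4 were called lower in E2E8, namely Dnmt3l, Dnmt3b, Tet2 and Tet1, and 1 higher, Uhrf2 (0.65). Dnmt3l, the cofactor without catalytic activity of its own, was at 2.91 and 3.14 FPKM in E2E8 and at 16.1 and 15.4 FPKM in E2G7. WT lay between them at 5.74 and 6.44 FPKM. The difference between the clones was -2.36 (standard error 0.05, adjusted p = 0.000483). Dnmt3b, which adds new methyl groups, was at 3.67 and 3.86 FPKM in E2E8, 13.5 and 13.6 FPKM in E2G7 and 10.7 and 10.3 FPKM in WT, a difference between the clones of -1.83. Tet2, for an enzyme that oxidizes methylcytosine, was at 5.6 and 5.61 against 11.1 and 11.2 FPKM (-0.99), and both clones were below WT at 16.7 and 17.8 FPKM. For its relative Tet1 the values were 21.2 and 21.9 against 34.7 and 35.4 FPKM (-0.71). Dnmt3a, at 1.47 and 1.39 against 1.38 and 1.43 FPKM, differed by 0.01, by -0.21 under quantile normalization and by -0.03 and -0.01 without replicate 1 of E2E8 or of E2G7, and was not called. The maintenance enzyme Dnmt1 (-0.16) was not called either.

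Among the 8 core pluripotency genes, 4 were called lower in E2E8 and none higher, and their median difference was -0.45. Lin28a, for an RNA-binding protein that keeps let-7 microRNAs from maturing, was at 38.2 and 36.2 FPKM in E2E8, 72.1 and 68.6 FPKM in E2G7 and 44.5 and 47.3 FPKM in WT. Its difference between the clones was -0.93 (standard error 0.04, adjusted p = 0.000591). Utf1 (-0.68), the transcription factor gene Sall4 (-0.66) and Dppa2 (-0.63, not called without E2E8 replicate 1) were the others. Pou5f1 (-0.27), Nanog (-0.14) and Sox2 (-0.04, and 0.0004 under quantile normalization) were not called. None of the 17 naive pluripotency genes was called, with differences from -0.43 to 0.50.

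Of 13 tested genes of primed pluripotency, the state of the later epiblast, 3 were called lower in E2E8 and none higher. Otx2, for a transcription factor of the early epiblast, was at 0.742 and 0.772 FPKM in E2E8, 3.04 and 2.9 FPKM in E2G7 and 10.8 and 11.1 FPKM in WT. Both clones thus lay below WT, with log2 differences of -3.72 and -1.87, and E2E8 lay below E2G7 by a log2 difference of -1.85 (adjusted p = 0.000546). Dnmt3b belongs to this list too, and Etv1 was the other (-0.72, not called without E2G7 replicate 2).

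Among ERK target genes, the share called lower was above that of all genes, and the share called higher was the same. Of 19 tested, 5 were called lower in E2E8 (26.3%: Spry4, Etv4, Myc, Etv1 and Dusp6) and 2 higher (10.5%: Dusp4 and Fos). The shares over all genes were 3.27% and 10.5%. Spry4, for a feedback inhibitor of this signalling, was at 0.503 and 0.458 FPKM in E2E8, 1.86 and 1.97 FPKM in E2G7 and 0.428 and 0.397 FPKM in WT, so that E2G7 stood apart from both. Its difference between the clones was -1.8 (standard error 0.09, adjusted p = 0.000702). Etv4, for an ETS transcription factor, was also highest in E2G7, with 0.659 and 0.806 FPKM in E2E8, 2.04 and 2.3 FPKM in E2G7 and 0.497 and 0.654 FPKM in WT. Dusp6, for a phosphatase that switches ERK off, was at 4.75 and 4.93 against 7.81 and 7.81 FPKM (-0.69), and Myc at 0.622 and 0.641 against 1.65 and 1.6 FPKM (-1.25). Dusp4, for another ERK phosphatase, was higher in E2E8, at 4.26 and 4.6 against 2.01 and 2.17 FPKM (1.04), as was Fos (0.82). Etv5 was at 80.0 and 79.2 against 86.4 and 83.1 FPKM and was not called.

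The BMP list had 2 genes called lower and 2 called higher of 15 tested (13.3% each, beside 3.27% and 10.5% of all genes). Id1 and Id3, both lower in E2E8, encode inhibitors of basic helix-loop-helix factors. Id3 was at 2.08 and 2.36 FPKM in E2E8, 8.42 and 9.57 FPKM in E2G7 and 6.61 and 5.8 FPKM in WT, a difference between the clones of -1.98 (standard error 0.09, adjusted p = 0.000575). Id1 was at 0.375 and 0.424 FPKM against 1.36 and 1.75 FPKM (-1.73), with WT at 0.471 and 0.546 FPKM, close to E2E8. The ligand gene Bmp7 was higher in E2E8 (3.81 and 4.2 against 1.74 and 1.89 FPKM, difference 1.09), as was Dusp9 (0.65). Of 15 WNT target genes, Cdx1 (-1.04) and Tcf7l1 (-0.61) were called lower and none higher, the latter not without E2E8 replicate 1 or E2G7 replicate 2. In the LIF and STAT3 list, Myc alone was called of 12, and none of 9 Nodal and mesendoderm genes was.

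Of 19 tested genes of the amino acid and unfolded protein response, 6 were called higher in E2E8 and none lower, with a median difference of 0.45. This response raises the translation of the factor ATF4 when amino acids are short or proteins misfold. Ddit3, which encodes the transcription factor CHOP, was at 15.3 and 16.1 FPKM in E2E8, 5.46 and 5.19 FPKM in E2G7 and 4.17 and 4.73 FPKM in WT, a difference between the clones of 1.53 (standard error 0.05, adjusted p = 0.000503). Atf3, for another transcription factor of the response, was at 3.98 and 4.15 against 1.39 and 1.34 FPKM (1.5). Chac1, for an enzyme that breaks down glutathione, was at 8.33 and 8.52 against 4.02 and 4.46 FPKM (0.97). Slc7a11 (0.81) and Slc3a2 (0.59) encode the subunits of a cystine transporter, and Herpud1 (0.69) acts in the degradation of misfolded proteins of the endoplasmic reticulum. Slc7a11 was not called without either E2E8 library, nor Slc3a2 without replicate 2 of E2E8 or of E2G7. The RNA of Atf4 itself was at 229 and 239 against 218 and 215 FPKM, a difference of 0.10 that was not called. Asns (0.18) and Trib3 (0.54) were not called either.

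The promoters of 3 of these genes are shown because they hold the letters TGATGNAA, a motif that ATF4 binds with a C/EBP partner. Each run is the 250 bases before the RefSeq start on GRCm38.p6, read 5′ to 3′ on the gene's strand, and capitals mark each match on either strand.
Chac1 promoter, chr2:119350992-119351241, plus strand: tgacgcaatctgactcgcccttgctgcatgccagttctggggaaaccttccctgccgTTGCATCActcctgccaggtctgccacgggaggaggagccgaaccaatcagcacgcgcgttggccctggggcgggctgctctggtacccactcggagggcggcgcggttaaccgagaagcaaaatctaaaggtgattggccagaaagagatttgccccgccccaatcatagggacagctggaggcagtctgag
Atf3 promoter, chr1:191183334-191183583, minus strand: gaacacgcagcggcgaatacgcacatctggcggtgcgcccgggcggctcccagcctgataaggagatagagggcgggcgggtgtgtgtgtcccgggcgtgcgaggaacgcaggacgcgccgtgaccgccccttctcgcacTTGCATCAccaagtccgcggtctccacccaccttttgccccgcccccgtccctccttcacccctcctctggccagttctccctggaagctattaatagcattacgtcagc
Slc7a11 promoter, chr3:50443614-50443863, minus strand: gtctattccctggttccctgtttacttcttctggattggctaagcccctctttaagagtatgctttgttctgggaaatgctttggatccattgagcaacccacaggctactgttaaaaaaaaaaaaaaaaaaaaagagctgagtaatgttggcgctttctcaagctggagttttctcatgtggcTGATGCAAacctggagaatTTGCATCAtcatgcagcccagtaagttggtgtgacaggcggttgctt
In the window from 250 bases before to 50 after the start, the letters were found in 4 of the 6 called genes (Herpud1 is the other) and in 2 of the 13 genes not called (Trib3 and Asns). Of all 32851 RefSeq promoters of that length, 3.97% hold them, as do 2.23% of the promoters of tested genes and 2.93% of those of genes called higher in E2E8. These are matches of letters, not sites shown to be bound.

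The list of 53 lysosome and autophagy genes was drawn up after the values were seen, so its counts only describe it. Of them, 14 were called higher and none lower, and the median difference was 0.37. Naglu, for an enzyme that degrades heparan sulfate, was at 3.25 and 3.29 FPKM in E2E8, 0.682 and 0.775 FPKM in E2G7 and 0.714 and 0.645 FPKM in WT, a difference between the clones of 2.02 (standard error 0.09, adjusted p = 0.000546). Lipa, for the lysosomal acid lipase, was at 4.49 and 4.41 against 1.25 and 1.15 FPKM (1.8). For Lipa it was E2E8 that lay nearer to WT (3.55 and 3.52 FPKM), and E2G7 lay below both. Gpnmb, for a glycoprotein of lysosomes and melanosomes, was at 22 and 23.3 against 8.01 and 8.56 FPKM, Gaa, for the acid α-glucosidase, at 34 and 36.8 against 16.5 and 17.3 FPKM, and the sialidase gene Neu1 at 12.8 and 13.8 against 6.36 and 6.52 FPKM. Gabarapl1, for an ATG8 family member of autophagy, was at 56.6 and 55.6 against 27.3 and 27.8 FPKM.
The Naglu promoter is printed in the same way, with the letters GTCACGTG, which TFEB and related factors of lysosomal genes bind, in capitals.
Naglu promoter, chr11:101069844-101070093, plus strand: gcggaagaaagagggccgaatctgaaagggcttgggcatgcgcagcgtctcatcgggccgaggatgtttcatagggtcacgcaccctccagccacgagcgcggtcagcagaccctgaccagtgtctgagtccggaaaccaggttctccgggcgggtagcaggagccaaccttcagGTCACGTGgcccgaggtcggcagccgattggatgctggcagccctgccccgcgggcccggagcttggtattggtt
Of the 14 called genes, 3 hold these letters (Naglu, Sgsh and Arsa), as do 7 of the 39 that were not called. The share was 2.25% in all RefSeq promoters, 4.09% in those of tested genes and 3.43% in those of genes called higher in E2E8.

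**Figure D3:**
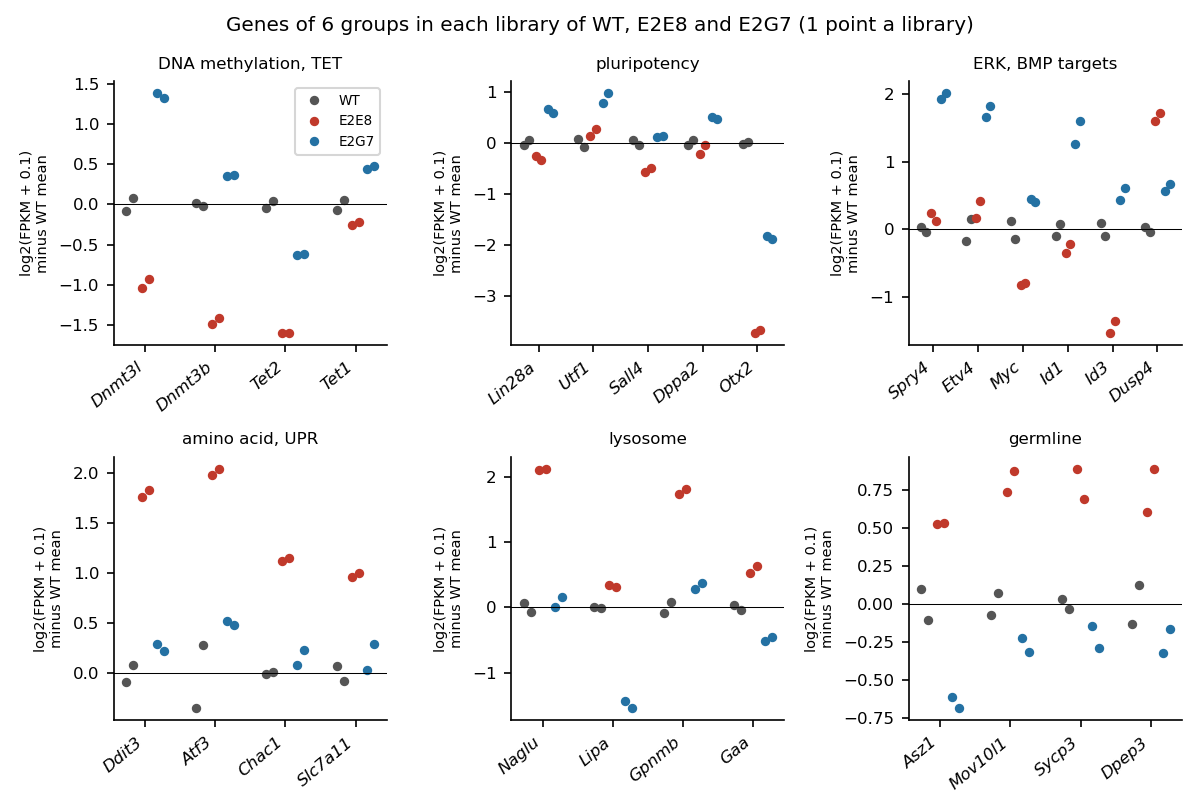
Genes of the groups described above in each library of WT, E2E8 and E2G7, as log2(FPKM + 0.1) minus that of the WT mean (vertical axis), with 1 point a library. Dnmt3l, Dnmt3b and Id3 lie below WT in E2E8 and above it in E2G7, whereas Ddit3 and Naglu lie far above WT in E2E8 (1.77 and 2.09) and near it in E2G7 (0.24 and 0.07).

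Of 18 tested germline genes, 7 were called higher in E2E8 and none lower, with a median difference of 0.45, and 3 of the others lay below 0. Asz1, for a protein of the piRNA pathway, was at 0.69 and 0.695 FPKM in E2E8, 0.259 and 0.241 FPKM in E2G7 and 0.489 and 0.41 FPKM in WT, a difference between the clones of 1.17 (standard error 0.12, adjusted p = 0.00212). Mov10l1, for a piRNA helicase (1.07), and Sycp3, for a component of the meiotic chromosome axis (1.0), followed. Hormad1, for a further meiotic axis protein, was at 23.3 and 22.6 FPKM against 13 and 12.7 FPKM. Dpep3 (0.98), Sohlh2 (0.92) and Stk31 (0.63) completed the group, but Stk31 was not called without E2E8 replicate 2, nor Dpep3 without that library or either of E2G7. Dazl (0.01) and Ddx4 (0.05) were not called. The count was 3 with a pseudocount of 1 and 4 among genes whose mean reached 1 FPKM.

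**Figure D4:**
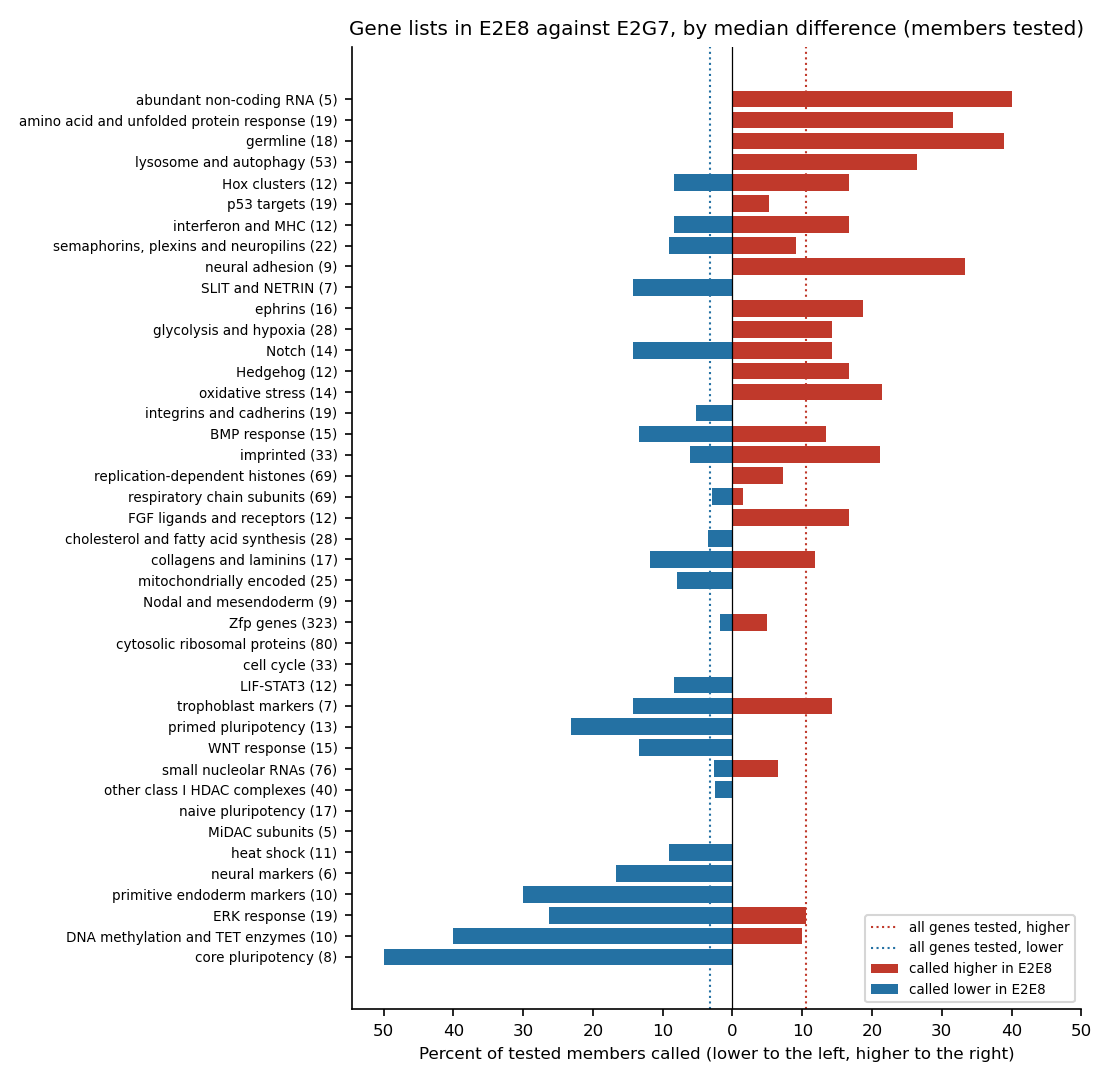
Percent of tested members called higher in E2E8 (bars to the right) or lower (bars to the left) in each list with at least 5 tested members, leaving out the Y-linked and the study's lists, ordered by median difference, with dotted lines at the shares over all genes (10.5% and 3.27%). The amino acid and unfolded protein response, germline, and lysosome and autophagy lists stand near the top, and core pluripotency stands at the foot. The lists were chosen with earlier results of these data known, and the lysosome list after its values were seen, so this order only describes them.

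Imprinted genes, which are expressed from 1 parental copy, went both ways. Of 33 tested, 7 were called higher (21.2%) and 2 lower (6.06%), beside 10.5% and 3.27% of all genes. Dio3, for a deiodinase that inactivates thyroid hormone, was at 0.117 and 0.271 FPKM in E2E8 and 1.92 and 2.0 FPKM in E2G7, with WT at 1.12 and 1.08 FPKM. Its difference between the clones was -2.87 (standard error 0.27, adjusted p = 0.00178). Nnat was at 0.577 and 0.48 against 1.82 and 2.04 FPKM (-1.7). H19, a maternally expressed RNA, was at 0.228 and 0.358 FPKM in E2E8, 0.0523 and 0.00488 FPKM in E2G7 and 0.678 and 0.523 FPKM in WT. Both clones thus lay below WT for H19, E2G7 the more so. Nap1l5 was at 0.251 and 0.393 against 0.0524 and 0.0489 FPKM (1.46). H19 and Nap1l5, which are among the 7, passed the filter through E2E8 alone, so that only a difference in that direction could be seen in them. Neither was called with a pseudocount of 1.

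In the Notch pathway, 2 genes were called higher and 2 lower of 14 tested (14.3% each, beside 10.5% and 3.27% of all genes). The ligand gene Dll1 was at 0.941 and 1.0 FPKM in E2E8 and 0.109 and 0.14 FPKM in E2G7 (2.25), and the ligand gene Jag2 was also higher (0.97). Lfng, for a glycosyltransferase that modifies Notch receptors, was lower (1.69 and 1.84 against 5.72 and 5.82 FPKM, -1.66), as was the ligand gene Jag1 (-0.68). The target genes Hes1 (0.40) and Hey1 (0.17) were not called. Of 12 Hedgehog genes 2 were called higher (16.7%) and none lower. They were Smo, for the transducer of the signal (6.32 and 6.44 against 2.44 and 2.41 FPKM, 1.35), and Gas1, for a co-receptor (1.0). Ptch1 (0.03) and Gli1 (0.49), which Hedgehog signals activate, were not called. Of 12 FGF ligands and receptors, Fgfr4 (1.53) and Fgfrl1 (0.79) were called higher (16.7%) and none lower.

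Among 28 genes of glycolysis and hypoxia, 4 were called higher (14.3%, beside 10.5% of all genes) and none lower. Vegfa, for a growth factor of blood vessels, was at 5.09 and 5.69 against 2.0 and 1.83 FPKM (1.43), and Ddit4, for an inhibitor of mTORC1, at 47.6 and 45.5 against 18.7 and 19.8 FPKM (1.26). The others were P4ha1 (0.78) and Slc2a3 (0.62, not called with chromosomes centred). Of 14 oxidative stress genes, Slc7a11, Srxn1 (0.77) and Hmox1 (0.74) were called higher (21.4%). Of 12 interferon and MHC genes, Tap1 (1.02) and H2-K1 (0.89) were higher (16.7%) and Oas1a (-1.75) lower (8.33%). Tap1 was not called with a pseudocount of 1, with quantile normalization, or without either E2E8 library or E2G7 replicate 1. Of 19 p53 targets, Perp alone was called (0.83), but 15 lay above 0 and 4 below, with a median difference of 0.33. Of 11 heat shock genes, Hspb1 alone was called (-0.75).

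Some markers of other cell types were called between the clones. Of 10 tested markers of primitive endoderm, an early extraembryonic lineage, 3 were called lower in E2E8, the basement membrane genes Col4a1 (-1.01) and Lamb1 (-0.69) and the transcription factor gene Sox7 (-1.0, not called without either E2E8 library). The 3 were 30% of those tested, beside 3.27% of all genes called lower. Sox7 was under 0.1 FPKM in both E2E8 libraries and passed the filter through E2G7 alone. The whole list of 17 summed to 151 to 155 FPKM in E2E8, 173 to 175 FPKM in E2G7 and 124 to 129 FPKM in WT. In each clone, 8 members were under 0.1 FPKM. Of 7 trophoblast markers, Krt7 was called higher (0.88) and Krt8 lower (-0.91). The trophoblast list summed to 58.5 to 61.3 FPKM in E2E8, 62.4 to 63.5 FPKM in E2G7 and 60.8 to 62.3 FPKM in WT. Tubb3, for a neuronal tubulin, was at 46.4 and 44.3 FPKM in E2E8, 87.2 and 87 FPKM in E2G7 and 57.9 and 53.9 FPKM in WT, and was the only neural marker called of 6 tested. The 14 neural markers summed to 66.9 to 67.9 FPKM in E2E8 and 116 to 117 FPKM in E2G7, most of it from Tubb3. Of the 6 tested, 3 lay above 0 and 3 below.

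Several lists had few calls or none. None of 80 cytosolic ribosomal proteins and none of 33 cell cycle genes was called, with medians of -0.08 in both, and of 69 respiratory chain genes 1 was called higher and 2 lower. Of 40 genes of the other class I HDAC complexes, Chd3, for a NuRD helicase, was called alone (-0.68), and of 28 genes of cholesterol and fatty acid synthesis, Fasn alone (-0.61, not called without E2E8 replicate 1). Of 69 histone genes 5 were higher and none lower, and of 323 Zfp genes 16 were higher and 6 lower. Small nucleolar RNAs were called higher in 5 of 76 cases and lower in 2. Among the higher ones, Snora73b was at 1204 and 849 FPKM against 517 and 477 FPKM, so that the libraries of E2E8 lay far apart, and it was not called without E2G7 replicate 2.

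Of 15 tested genes that the study names, some of them as not affected by MiDAC loss, 1 was called higher in E2E8 and 4 lower. Those called lower were Spry4, Id1, Unc5b and Tubb3. The study reports Spry4 and Id1 as raised in mESCs on loss of DNTTIP1 or ELMSAN1. Against WT, Spry4 and Id1 differed by 0.16 and -0.31 in E2E8, neither called, and by 1.96 and 1.42 in E2G7, both called higher. Unc5b, for a receptor of netrins, was at 8.87 and 9.8 FPKM in E2E8, 14.8 and 14.3 FPKM in E2G7 and 8.43 and 8.14 FPKM in WT (difference between the clones -0.65, not called without E2E8 replicate 1). Ntn1, for a netrin, was at 12.2 and 12.7 against 12.8 and 13.5 FPKM, with WT at 24.7 and 25.4 FPKM. The clones thus lay close together and both below WT, and the difference between them, -0.09 (adjusted p = 0.122), was not called. The adhesion gene Ncam1 had a like order, at 1.53 and 1.49 against 1.63 and 1.66 FPKM, with WT at 5.66 and 6.13 FPKM. Pacsin1, for a membrane-bending protein of synapses, was at 0.564 and 0.497 FPKM in E2E8, 0.239 and 0.234 FPKM in E2G7 and 0.132 and 0.151 FPKM in WT (0.90, not called without E2E8 replicate 1). Slit3 (0.0326 and 0.0319 against 0.0245 and 0.0153 FPKM, with WT at 0.62 and 0.496 FPKM), Robo3 and Pax6 were too low to be tested between the clones.

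The study's own lists for the Elmsan1 KO were chosen on these libraries with both clones in 1 group, so their counts are not independent evidence. Of 306 genes listed as up in the Elmsan1 KO, 8 were called higher in E2E8 (2.61%, beside 10.5% of all tested genes) and none lower. The median difference from WT of the 306 genes was 0.84 in E2E8 and 0.69 in E2G7. Bst2, for an interferon-inducible membrane protein, was at 255 and 247 FPKM in E2E8, 129 and 133 FPKM in E2G7 and 58.7 and 56.1 FPKM in WT. Of 436 tested genes listed as down, 48 were called higher in E2E8 and 21 lower, with medians from WT of -0.92 in E2E8 and -1.05 in E2G7. With quantile normalization 22 of them were called higher and 36 lower. The calls over all genes shifted the same way, to 1043 higher and 832 lower. Nxf3, for an RNA export factor, was at 1.54 and 1.53 FPKM in E2E8, 0.55 and 0.414 FPKM in E2G7 and 7.63 and 8.32 FPKM in WT. Gja1, which encodes a gap junction protein, lay the other way, at 6.57 and 6.07 against 13.8 and 13.3 FPKM, with WT at 38.2 and 38.4 FPKM.

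Of called genes whose mean reached 1 FPKM, leaving out clone-like names, Fgg, for the fibrinogen γ chain, had the largest positive difference. It was at 4.41 and 5.04 FPKM in E2E8, 0.72 and 0.919 FPKM in E2G7 and 0.311 and 0.242 FPKM in WT (2.39, standard error 0.13, adjusted p = 0.000727). Gpx6, for a glutathione peroxidase, was at 10.7 and 10.4 against 2.08 and 2.5 FPKM, Got1l1 at 11.2 and 11.3 against 2.77 and 2.34 FPKM, and Mid1, for a ubiquitin ligase of microtubules, at 12.4 and 13.7 against 3.12 and 3.23 FPKM. Rassf6 (2.0), Zc3h6 (1.98) and the water channel gene Aqp8 (1.94) followed. The annotated microRNA genes Mir130a (2.3), Mir466b-6 (2.08) and Mir466b-5 (2.07) and the small nuclear RNA gene U4 (2.0) also ranked here. The microRNA genes are short and rest on few fragments, down to 3 for Mir130a, 2 for Mir466b-6 and 4 for Mir466b-5 in 1 library. Reads of a longer transcript over them cannot be told apart from their own. Sfmbt2, within which the Mir466b genes lie, was at 3.29 and 3.33 against 4.12 and 3.96 FPKM and was not called.

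Below the Y-linked genes, Nt5e, for the ecto-5′-nucleotidase CD73, had the largest negative difference. It was at 0.184 and 0.225 FPKM in E2E8, 2.43 and 2.48 FPKM in E2G7 and 1.38 and 1.39 FPKM in WT (-3.08, standard error 0.11, adjusted p = 0.000503). Irgm1, for an interferon-inducible GTPase, was at 0.506 and 0.351 against 1.83 and 1.72 FPKM, and Oas1a, for an antiviral enzyme, at 0.898 and 1.01 against 3.37 and 3.47 FPKM. WT lay between the clones for Irgm1 (0.891 and 0.912 FPKM) and near E2G7 for Oas1a (3.22 and 3.13 FPKM).

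Both clones were also set against WT, in 1 model whose contrasts share the WT libraries. E2E8 had 1749 of 17212 genes higher than WT (10.2%) and 1006 lower (5.84%), and E2G7 had 617 higher (3.58%) and 1101 lower (6.4%). The share called in either direction was 16% for E2E8 and 9.98% for E2G7, against 13.7% between the clones. Genes called higher in E2E8 than in E2G7 had a median difference from WT of 0.69 in E2E8 and -0.19 in E2G7. For those called lower, it was -0.65 in E2E8 and 0.29 in E2G7. Either clone could be the one away from WT, but more often it was E2E8. E2E8 lay farther from WT for 1221 of the 1752 genes called higher and 341 of the 547 called lower. Naglu, Ddit3 and Fgg differed from WT by 2.09, 1.77 and 3.66 in E2E8 and by 0.07, 0.24 and 1.27 in E2G7, while Spry4, Etv4 and Id1 differed by 0.16, 0.28 and -0.31 in E2E8 and by 1.96, 1.74 and 1.42 in E2G7.

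By chromosome, the median difference between the clones lay over 0.1 from that of all genes on chromosomes 6 and Y only. On chromosome 6, 110 of 767 tested genes were called higher and 21 lower, with a median of 0.17, which is 0.12 above that of all genes. Among its 451 genes whose mean reached 3 FPKM, the median from WT was 0.40 and 0.37 in the libraries of E2E8 and 0.30 and 0.30 in those of E2G7. The raised level ran along the chromosome, with medians of 0.31 to 0.43 in E2E8 and 0.19 to 0.34 in E2G7 over its 20-Mb windows. The median difference between the clones was 0.07 over the 451 genes and was uneven along the chromosome. It was highest from 20 to 40 Mb (0.13) and lowest from 140 to 160 Mb (-0.01). On chromosome 8 the medians from WT were 0.33 and 0.35 in E2E8 and 0.36 and 0.36 in E2G7. The Dnttip1 clones had medians from 0.35 to 0.38 on chromosome 8, while on chromosome 6 D1E6 had 0.43 and 0.42 and D2A7 -0.09 and -0.08. The called genes of highest level on chromosome 6 were Scarna10, AC156953.1 and Slc2a3, for the glucose transporter GLUT3, which was at 366 and 367 FPKM in E2E8 and 239 and 234 FPKM in E2G7 and lost its call once each chromosome was centred. Gata2, for a transcription factor, named after its values were seen, was at 12.1 and 12.5 against 4.44 and 4.95 FPKM (1.36). DNA copy number was not measured in these files.

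**Figure D5:**
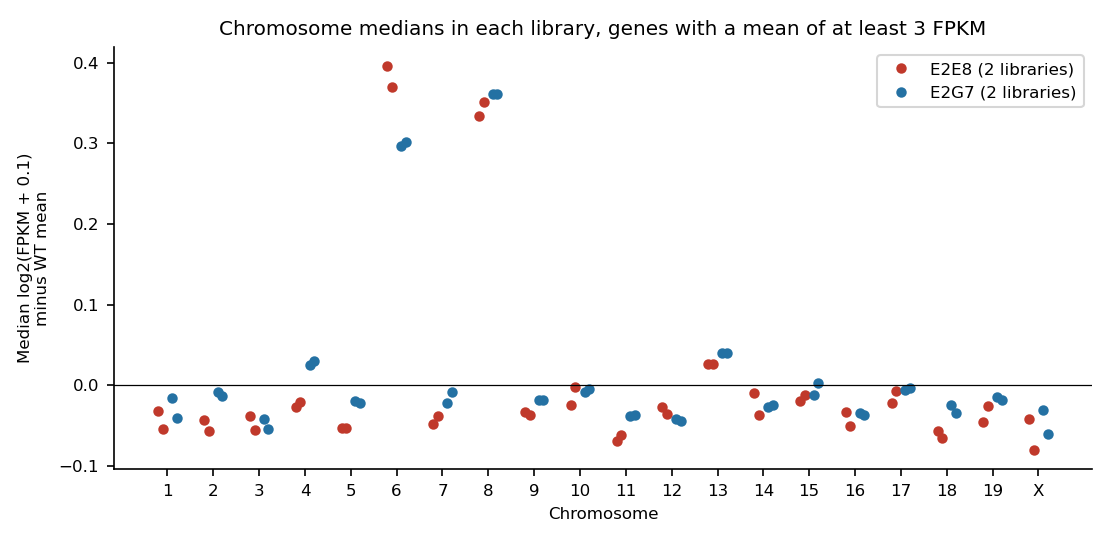
Median over the genes of each chromosome whose mean reached 3 FPKM, as log2(FPKM + 0.1) minus the WT mean (vertical axis), for each library of E2E8 and E2G7. Chromosomes 6 and 8 stand above the others in both clones (the Dnttip1 clones, not drawn, are raised on chromosome 8 too, and D1E6 on chromosome 6), and on chromosome 6 the E2E8 points (0.40 and 0.37) lie above the E2G7 points (0.30 and 0.30).

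The Dnttip1 clones D2A7 and D1E6 gave the difference between 2 clones of another genotype, with no library in common. In them 1564 of 16991 genes were higher in D2A7 (9.2%) and 634 lower (3.73%). Which clone is set against which is arbitrary. Over 16300 genes tested in both pairs, the differences had a Pearson correlation of -0.05, given as a description across genes, which are not independent. Of the 2206 of these genes called between the Elmsan1 clones, 25.8% were also called between the Dnttip1 clones, 305 in the same direction and 264 in the opposite one, and they make up 28.1% of the 2028 called there. The contrast of the differences, E2E8 minus E2G7 less D2A7 minus D1E6, was called above 0 for 1898 of 17588 genes (10.8%) and below 0 for 1575 (8.95%), which is 19.7% in either direction.

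Spry4 and Etv4 differed by -2.51 and -2.44 between D2A7 and D1E6, so that these ERK target genes varied between clones of both genotypes. Otx2 differed by 1.88 there. Naglu (-0.20) and Fgg (-0.20) differed little. The Y-linked genes were measured in both Dnttip1 clones, with 12405 and 10471 fragments over the 9 genes in D2A7 and 5851 and 7899 in D1E6, against 2 and 3 in E2E8.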

How the data were processed

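Stranded total RNA of 10 libraries was sequenced from both ends. Alignment was to NCBIM37 and counting by gene with HTSeq on GENCODE, and the authors deposited FPKM values, 1 column a library. No counts were used as deposited. The depth was read from the FPKM steps with GENCODE vM1 exon lengths, with 98.1% to 98.4% of low values whole within a tolerance of 0.02. Exact intervals (95%) and the floor of 3 fragments cover counting error only.

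FPKM were divided by median-ratio size factors over 11270 genes, genes that reached 0.1 FPKM in 2 or more of the libraries compared were kept, and log2(FPKM + 0.1) was tested with limma 3.58.1 (R 4.3.3) with a variance trend and Benjamini-Hochberg adjustment. Groups came from the clone names. An exact permutation of 2 against 2 libraries cannot give a p below 0.333. On data simulated for E2E8 against E2G7 over 16445 genes, 182 of 200 genes changed by 0.8 (log2) were called, and 95 of 16245 unchanged genes. The simulation gave all genes 1 common spread, taken from libraries of the same clone, and changed only genes of at least 0.3 FPKM. It therefore cannot speak to spread between cultures or to changes in lower genes.

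Named were the MiDAC genes, the 12 called genes with the largest difference in each direction among those with a mean of 1 FPKM or more and a gene symbol that is not clone-like, genes the study names, up to 4 called members of each list, the 5 largest contrasts with the Dnttip1 clones in each direction, and 3 genes of each outlying chromosome. Other genes were named after their values were seen. The members and lists were chosen with earlier results of these data known. Of 715 list members, 11 were not matched. Alternatives were the pseudocount, filter, normalization, variance trend, samples in the fit, replicate block, centred chromosomes, voom on recovered fragments and each library left out. Promoters are from RefSeq (GRCm38.p6).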

Additional observations from a re-analysis of the deposited data

Results flagged for a closer look

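These genes differed between the Elmsan1 clones otherwise than between the Dnttip1 clones, by the contrast of the 2 differences (E2E8 minus E2G7 less D2A7 minus D1E6) in the limma fit. They are the 5 called genes with the largest contrast in each direction. The pairing of the clones is arbitrary, so the sign and size of each contrast depend on it.

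Among the Y-linked genes the contrast was -7.07 for Ddx3y, -6.0 for Eif2s3y and -5.08 for Uty, which had at most 1 fragment in both libraries of E2E8 together. Ly6a, for a membrane protein, had a contrast of -5.38 (adjusted p = 7.01e-05), with 0.0322 and 0.145 FPKM in E2E8, 0.894 and 0.946 FPKM in E2G7, 4.74 and 5.03 FPKM in D2A7 and 0.557 and 0.607 FPKM in D1E6. Pramel6 had a contrast of -5.31, with 0.222 and 0.15 FPKM in E2E8, 1.03 and 1.05 FPKM in E2G7, 14.1 and 13.1 FPKM in D2A7 and 1.13 and 1.49 FPKM in D1E6. For Ly6a and Pramel6, D2A7 was the clone far above the others.

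In the other direction, Lipa had a contrast of 3.08 (adjusted p = 1.33e-05), with 4.49 and 4.41 FPKM in E2E8, 1.25 and 1.15 FPKM in E2G7, 0.396 and 0.418 FPKM in D2A7 and 1.07 and 1.2 FPKM in D1E6. Zfp521, for a zinc finger protein, had a contrast of 2.63, with 7.08 and 7.57 FPKM in E2E8, 2.9 and 2.85 FPKM in E2G7, 1.14 and 1.45 FPKM in D2A7 and 3.33 and 3.46 FPKM in D1E6. The short microRNA genes Mir466b-1 (3.0), Mir467a-4 (2.95) and Mir466b-5 (2.77), whose levels rest on few fragments, were the others.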

How the results depend on the processing

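Of 147 called named genes, 93 kept their call in each alternative that could test them, at most 15 a gene, and none reversed. A pseudocount of 1 ended the call of 45 of them and quantile normalization that of 17, among them Dusp9, Fos, Uhrf2, Fasn, Slc7a11 and Stk31. Between the clones, 616 genes were called higher and 230 lower with a pseudocount of 1, 952 and 302 among genes whose mean reached 1 FPKM, and 1043 and 832 with quantile normalization. Leaving out 1 library gave 1270 to 1539 higher and 395 to 530 lower, where the lone library of a clone is assumed to vary like the others. With a pseudocount of 1, E2E8 against WT gave 843 higher and 454 lower, E2G7 against WT 253 and 461, and the contrast with the Dnttip1 clones 1078 above 0 and 967 below. Among genes whose mean reached 1 FPKM these were 1058 and 520 for E2E8, 401 and 551 for E2G7, and 976 below 0 for the contrast. With the clones crossed, an alternative chosen after seeing the data, and the usual filter, the contrast was called below 0 for 835 genes and above for 2796, against 1575 and 1898.

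The median of chromosome 6 above that of all genes was 0.0635 with a pseudocount of 1 and 0.123 with 0.01, 0.0920 among genes whose mean reached 1 FPKM, 0.0568 with no filter, 0.111 with quantile normalization and 0.123 with voom, and without 1 library 0.0997 to 0.119. Germline genes called higher numbered 3 with a pseudocount of 1 and 4 with that mean. The Y-linked genes called lower numbered 3 with that mean and 0 to 6 without 1 library, since without an E2G7 library the filter removed them. Of the study's up list, 3 were called higher with a pseudocount of 1, 5 with quantile normalization and 4 to 13 without 1 library (13 without E2E8 replicate 1). Of its down list, 13, 22 and 22 were called higher with a pseudocount of 1, that mean and quantile normalization, and 5, 8 and 36 lower, with 9 to 17 lower without 1 library. The cause was not tested.

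Directions that turned were those of Elmsan1 (-0.0177 with quantile normalization), Sox2 (0.000398), Rpl32 (-0.0269, and -0.0552 with chromosomes centred), Dnmt3a (-0.210, and -0.0307 to 0.0519 without 1 library) and Dppa5a (-0.159 to 0.00645 without 1 library). None of these genes was called.

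With the replicate number as a block, 1609 genes were higher and 499 lower between the clones, 1838 above and 1540 below 0 in the contrast, 1679 and 958 in E2E8 against WT, and 589 and 1051 in E2G7 against WT. Same-numbered libraries had a correlation of deviations of 0.0439, from 2 pairs only, and what else they share is not given in the labels.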

Other observations

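Of 9 tested neural adhesion genes, 3 were called higher in E2E8 and none lower, Nrcam (1.51 and 1.43 against 0.802 and 0.761 FPKM, difference 0.82), Cntnap2 (0.62) and Cadm4 (0.60). Cntnap2 was not called without replicate 2 of E2E8 or of E2G7, nor Cadm4 without E2G7 replicate 1. The ephrin list had 3 called higher (18.8%, beside 10.5% of all genes) and none lower of 16. They were the ligand genes Efna3 (13.4 and 13.8 against 7.2 and 7.39 FPKM, 0.88) and Efna1 (0.83) and the receptor gene Epha7 (0.78). Of 22 semaphorin, plexin and neuropilin genes, Sema4f (1.01) and Sema4g (0.79) were higher and Sema7a (-0.71) and Sema6a (-0.67) lower (9.09% in each direction). Sema6a was not called with the replicate block, with a pseudocount of 1 or without any 1 of the 4 libraries, Sema7a not with that pseudocount or without E2E8 replicate 1 or E2G7 replicate 2, and Sema4g not without either E2G7 library. Of 36 genes listed by the study as neural and down in the Dnttip1 KO, 12 were called higher in E2E8 than in E2G7 and 2 lower, beside 10.5% and 3.27% of all genes. Their median from WT was -0.64 in E2E8 and -0.87 in E2G7, with 18 and 28 called lower than WT and none higher. The study chose this list on libraries that share the WT samples.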
